A study of Gallus gallus with 4 samples.

Results

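The genes of chicken chromosome Z, the sex chromosome that males carry as a pair and females carry once, were examined in RNA sequencing of the area vasculosa. Rows of the deposited gene table were chosen by a locus on Z and at least 1 FPKM in at least 1 of 4 libraries. FPKM is the number of fragments scaled to transcript length and to the fragments mapped in a library. Of 859 rows on Z, 537 were chosen, out of 17108 rows in the table and 11806 that reached 1 FPKM anywhere. The other 322 Z rows stayed under 1 FPKM, and 160 of them were listed at 0 in all 4 libraries. Just inside the filter were C7, with a highest value of 1.03 FPKM, and ALPK2 with 1.05, and just outside were LRRC2 with 0.986 and ZBTB7C with 0.966. Of the 537 rows, 487 had a gene symbol and 50 had only an identifier.

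The area vasculosa is a zone of yolk sac membrane that surrounds the chick embryo and makes its earliest blood and vessels. Embryos were grown to Hamburger-Hamilton stage HH10, HH11, HH12 or HH13, and 1 library of total RNA was made from each stage. No treatment, strain or genotype is given for any stage, and neither the number nor the sex of the embryos behind a library is given in the sources used here. With 1 library per stage no difference has a replicate check, no test was made, and stage, embryo and library cannot be told apart.

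Birds have a ZZ male and a ZW female. Of the many genes on the chicken Z only a few keep a working copy, a gametolog, on the small W. Birds do not silence a whole Z, so many Z genes are known to be expressed more in males than in females, by an amount that varies from gene to gene. DMRT1, a transcription factor gene on Z, is needed for testis development, and a stretch of DNA next to it, the male hypermethylated region, is methylated on the Z chromosomes of males.

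Facts of the libraries came first. Total FPKM ran from 762831 in HH11 to 952203 in HH10. The 5.8S ribosomal RNA row took 5.94% of the total in HH10 and 0.574 to 1.46% in the later libraries, and the unnamed row ENSGALG00000026592 took 13.3% in HH10 and 0.668 to 1.26% later. Of 16 rows on the W chromosome, 7 had a mean of at least 1 FPKM over HH11, HH12 and HH13. Of these 7, 6 were listed at 0 in HH10, the other had 0.0349 FPKM there, and in the later libraries they ran from 0.938 to 13.4 FPKM. Markers of yolk sac endoderm, red cells and endothelium were read in every library. The 4 endoderm markers summed to 11617, 4663, 14989 and 43865 FPKM in stage order, the 2 red cell markers found of 4 to 1192, 233, 11807 and 26207, and the 3 endothelial markers found of 4 to 31.6, 10.7, 21.7 and 58.5. All 9 were lowest in HH11 and highest in HH13. In bulk tissue, fewer cells of a type and less RNA per cell cannot be told apart.

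The HH10 library held more RNA of Z genes, relative to other chromosomes, than each later library. The median Z row had 9.58 FPKM in HH10 and 6.58, 6.65 and 7.59 in HH11, HH12 and HH13. The median over 10639 rows on numbered chromosomes was 11.995, 12.4, 12.2 and 12.7 FPKM. Among rows with a mean of at least 5 FPKM, the Z median was 0.969 of the numbered median in HH10 and 0.673, 0.688 and 0.685 of it in the later libraries. The Z rows together made up 3.19% of all FPKM in HH10 and 2.48 to 2.67% in the later libraries.

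For each row, log2(FPKM + 1) in HH10 minus the mean of the 3 later libraries was taken, and the median of the numbered rows, -0.03, was subtracted. This relative difference is the value that the choice of chromosome rests on, so it is described and not tested. Its median over Z was 0.52 on the log2 scale, which is 1.43-fold, and its quartiles were 0.19 and 0.77. Over numbered chromosomes the quartiles ran from -0.21 to 0.18. Taken against one later library at a time, the Z median was 0.54 for HH11, 0.50 for HH12 and 0.49 for HH13, all 3 sharing the HH10 library. A pseudocount of 1 makes these values smaller than the true ratio for rows of low level.

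A band of 0.25 log2 units around 1.4-fold, from 1.18-fold to 1.66-fold, was used to sort the genes. Inside it were 228 Z rows (42.5%), against 16.6% of numbered rows. Below it were 159 Z rows (29.6%), against 80.5% of numbered rows, and above it 150 (27.9%), against 2.84%. HH10 was the highest of the 4 libraries for 353 Z rows (65.7%) and the lowest for 22 (4.10%, against 21.1% of numbered rows). It was not the highest for 184 Z rows (34.3%), against 84.0% of numbered rows. At the lower edge of the band lay GCNT1, inside at 0.24, and CTSL2, outside at 0.23, and at the upper edge DHX29, inside at 0.73, and LMBRD2, outside at 0.74. Since these are the edges of a continuous spread, the sides of the band are ranges and not classes of gene.

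**Figure D1:**
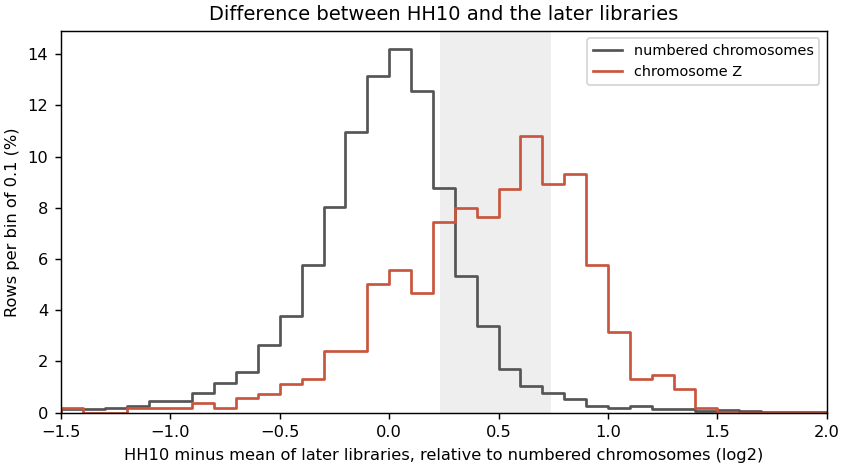
Share of rows (percent per bin of 0.1) by relative difference between HH10 and the mean of HH11, HH12 and HH13 on the log2 scale, for 537 rows on Z and 10639 on numbered chromosomes, with values outside -1.5 to 2 not drawn. The grey stretch is the band around 1.4-fold; the Z rows are centred on 0.52 and spread more widely than the numbered rows.

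Some of the spread on Z went with movement among the later libraries. The 276 Z rows whose HH11, HH12 and HH13 values lay within 0.5 log2 units of each other had a median of 0.58, with 56 below the band, 137 inside and 83 above, and HH10 was highest in 235 of them (85.1%). The 261 rows that moved by more had a median of 0.37, with 103 below, 91 inside and 67 above. Among numbered rows as steady, HH10 was highest in 22.7%, and 13.8% lay inside the band and 1.27% above. Among numbered rows that moved by more, 19.2% lay inside the band and 4.26% above.

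With a pseudocount of 1 the relative difference was larger for genes of higher level. Rows with a mean under 5 FPKM had a median of 0.35 (190 rows), those from 5 to 20 FPKM 0.55 (207 rows), and those of 20 FPKM or more 0.66, or 1.58-fold (140 rows). In the last class 60 rows (42.9%) lay above the band, against 1.48% of numbered rows in that class. The numbered rows had -0.02, 0.01 and 0.00 in the same classes. With a pseudocount of 0.1 the 3 Z medians were 0.54, 0.60 and 0.66, so the lowest class moved most and the classes lay closer together. Across the 537 Z rows the Spearman correlation of the relative difference with the log of the mean level was 0.24, a description over rows that share the same 4 libraries.

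**Figure D2:**
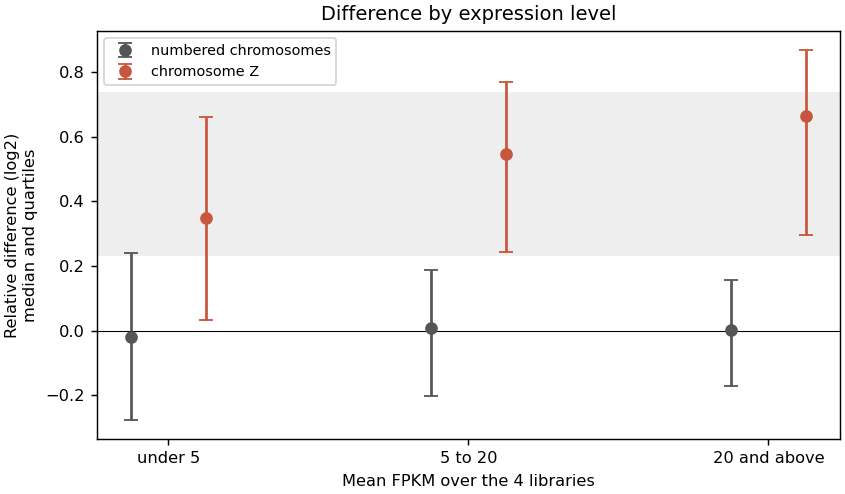
Relative difference on the log2(FPKM + 1) scale (points are medians over rows, bars run from the lower to the upper quartile) by mean FPKM over the 4 libraries, for Z and numbered chromosomes, with the band around 1.4-fold in grey. The Z median goes from 0.35 to 0.66 from the lowest to the highest class (0.54 to 0.66 with a pseudocount of 0.1), and the numbered medians lie within 0.02 of 0.

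The genes of the highest mean level inside the band began with RBF. RBF, named ATP5I in RefSeq, a subunit of the mitochondrial ATP synthase, had 993, 536, 720 and 801 FPKM in HH10, HH11, HH12 and HH13, a relative difference of 0.58. STOML2, a protein of the mitochondrial inner membrane, had 203, 132, 142 and 117 FPKM. In both genes HH10 was above each later library.

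ALDH7A1, an aldehyde dehydrogenase, had 114, 70.5, 75.2 and 93.2 FPKM, a relative difference of 0.55. FECH, the ferrochelatase that completes haem, had 141, 105, 104 and 135 FPKM, a smaller difference of 0.33. NARS, the asparaginyl-tRNA synthetase, had 93.4, 76.7, 92.7 and 65.5 FPKM, so that HH12 nearly equalled HH10. KIAA0020, the RNA-binding protein gene now named PUM3, had 91.9, 64.8, 73.5 and 42.8 FPKM.

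For 3 further genes of high level a place inside the band came from averaging libraries that were far apart. CLTA, a clathrin light chain, had 298, 149, 248 and 310 FPKM, and ACAA2, a thiolase of mitochondrial fatty acid oxidation, 203, 69.5, 137 and 207, so HH13 was above HH10 in both. FBP1, the gluconeogenic fructose-bisphosphatase, had 82.9, 14.3, 74.97 and 264 FPKM. Its relative difference of 0.34 was -0.73 with HH11 left out.

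Among the genes below the band, some were level across all 4 libraries. RPL37, a ribosomal protein gene, had 1628, 1624, 1841 and 1812 FPKM, a relative difference of -0.08. ARID3C, a member of a family of DNA-binding proteins, had 70.6, 70.3, 65.9 and 68.5 FPKM. SMN, whose protein assembles small nuclear ribonucleoproteins, had 89.5, 89.4, 87.2 and 71.5 FPKM. HH10 and HH11 differed by under 1 FPKM in ARID3C and SMN, on a chromosome where the median row was 1.45-fold higher in HH10 than in HH11 relative to numbered chromosomes.

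CTSL2, a cathepsin L-type protease of the lysosome, had the highest mean of the 537 rows, with 2487, 2037, 2652 and 1856 FPKM and a relative difference of 0.23. SEC11C, a subunit of the signal peptidase, had 116, 133, 122 and 65.6 FPKM. HMGCS1, an enzyme of cholesterol synthesis, had 75.3, 99.9, 84.1 and 66.2 FPKM, a relative difference of -0.10. In SEC11C and HMGCS1 HH11 was the highest library and HH13 the lowest.

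Other genes of high level below the band were higher in HH13 than in HH11. SEPP1, the selenium carrier now named SELENOP1, had 167, 37.1, 170 and 674 FPKM. NADK2, the mitochondrial NAD kinase, had 67.8, 49.7, 90.7 and 98.3. In both genes HH10 was above HH11 and under HH12 and HH13.

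The genes with the largest relative differences, among those with a mean of at least 5 FPKM, were led by SERINC5, a membrane protein that restricts retroviruses in mammals. It had 27.9, 13.3, 8.83 and 8.02 FPKM, a relative difference of 1.44. AK6, a nuclear adenylate kinase, had 34.3, 13.9, 13.5 and 13.2 FPKM, a single step from HH10 to a level that then stayed the same. FANCG, a protein of the Fanconi anaemia route of DNA repair, had 18.4, 5.32, 8.01 and 8.33 FPKM, and TMOD1, which caps actin filaments, 30.2, 10.01, 18.8 and 8.99.

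CFC1, a co-receptor of Nodal signals, had 15.5, 4.73, 4.87 and 10.1 FPKM. NXNL2 had 11.4, 5.92, 5.86 and 1.56, SLC28A3, a nucleoside transporter, 26.1, 22.7, 14.4 and 2.58, and CCDC125 18.2, 11.2, 8.54 and 3.25. In the last 3 genes HH13 was far under HH12, and their relative differences were 1.31 to 1.35. AK6 shares its deposited locus with RAD17, whose values were 5.61, 4.47, 5.63 and 3.46 FPKM, and reads could have been divided between the 2 rows. Other named genes that share a deposited locus with another row include SERINC5, RPL37, XPA, VLDL and RCL1.

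At the other end stood small RNA rows and genes of higher level late in the series. SCARNA8, a small Cajal body RNA within the HAUS6 locus, was listed at 0, 33.1, 0 and 22.2 FPKM, SNORA66, a small nucleolar RNA within the DNAJA1 locus, at 0, 0, 58.4 and 0, and SNORA47 at 0, 0, 0 and 22.2. An exact 0 in such a file can be a failed estimate, and each of these values rests on 1 or 2 libraries: without HH12 the relative difference of SNORA66 was 0.02, and without HH13 that of SNORA47 was 0.03. ANXA1, annexin A1, had 6.38, 13.3, 19.8 and 54.8 FPKM, the lowest relative difference of a protein gene with a symbol, -1.76.

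EGFLAM, an extracellular matrix protein, had 1.41, 1.06, 3.56 and 15.9 FPKM, and AQP3, a water and glycerol channel, 18.7, 16.6, 39.8 and 60.7. NLN, the peptidase neurolysin, had 7.99, 20.2, 18.8 and 8.95 FPKM, and ELOVL7, a fatty acid elongase, 8.06, 15.6, 15.6 and 10.5. These last 2 were low in both HH10 and HH13.

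By position, the shift ran along the whole of Z, with 1 dip in windows of 5 Mb. In windows of 5 Mb the median relative difference was 0.35 to 0.74 in 15 of 17 windows and 0.25 and 0.24 in the windows from 25 to 30 Mb (22 rows) and 30 to 35 Mb (25 rows). The highest window was 60 to 65 Mb at 0.74 (27 rows). The median row had a mean of 7.57 FPKM from 25 to 30 Mb and 4.54 FPKM from 30 to 35 Mb. From 75 to 80 Mb (10 rows) that mean was 3.01 FPKM, with a median relative difference of 0.59. With a pseudocount of 0.1 the lowest window, found anew, was at 0.31. Among all 537 rows the Spearman correlation with position was 0.01. Positions are those of the galGal4 build named in the submitters' processing notes. DMRT1, whose locus is chrZ:25808415-25864441, lies at the start of the dip in 5 Mb windows. In windows of 10 Mb the dip was milder. The window from 20 to 30 Mb, which holds DMRT1, had a median of 0.51 (82 rows). The lowest, from 30 to 40 Mb, had 0.33 (53 rows).

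**Figure D3:**
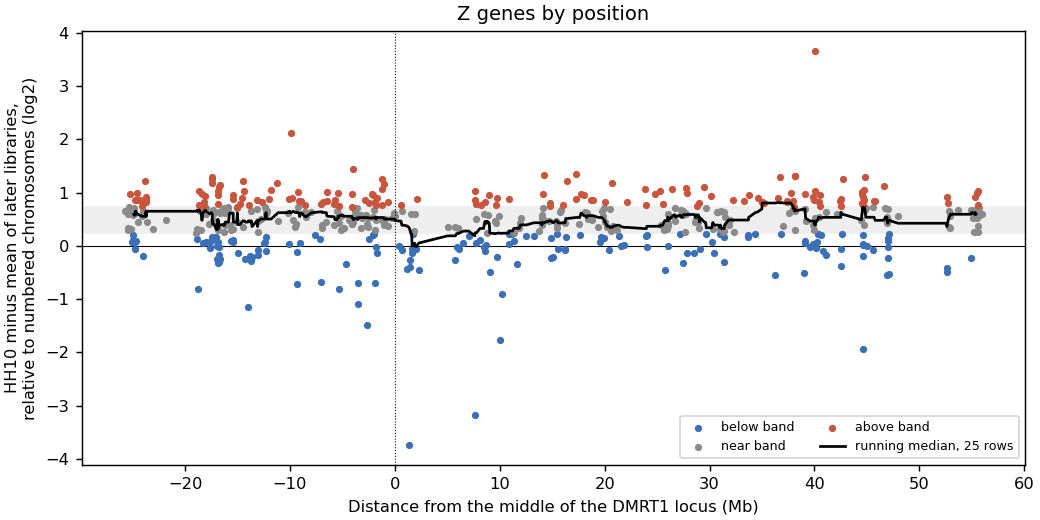
Relative difference between HH10 and the later libraries (log2) for each of the 537 Z rows against distance from the middle of the DMRT1 locus in Mb, coloured by side of the band around 1.4-fold, with the running median of 25 neighbouring rows as a line. The line drops to -0.01 just to the right of DMRT1 and reaches 0.81 about 35 to 38 Mb from it.

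A running median over 25 neighbouring rows was lowest, at -0.01, from KIAA0020 to SCARNA8 (chrZ:26488495-33461513). Of these 25 rows 16 lay below the band, 7 inside and 2 above, 13 were under 0, and HH10 was highest in 8. The stretch was picked for this value, so its count supports nothing. The lowest 5 Mb window of Z was at 0.24 with all libraries. Without HH11 the lowest window, found anew and not necessarily the same one, was at 0.10.

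The stretch opens with the longest run of neighbours below the band, 5 rows at chrZ:26531633-27328174. RFX3, a transcription factor of ciliated cells, had 1.24, 1.52, 1.03 and 1.79 FPKM. SLC1A1, a glutamate transporter, had 8.01, 10.9, 15.6 and 8.51 FPKM, CDC37L1, a relative of the Hsp90 co-chaperone CDC37, 12.4, 14.6, 16.4 and 15.3, and AK3, a mitochondrial adenylate kinase, 9.58, 8.66, 13.6 and 19.3. HH10 was the lowest library for SLC1A1 and CDC37L1.

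The fifth row of the run was ENSGALG00000018479 (chrZ:27179856-27188771), which has no name in the deposited table. It had 0.540 FPKM in HH10 and 18.4, 18.97 and 22.6 in HH11, HH12 and HH13. Its relative difference of -3.74 was the lowest on Z, and the 3 later libraries differed by little. It starts 1.32 Mb past the end of the DMRT1 locus. The row is singled out here after its values were seen.

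**Figure D4:**
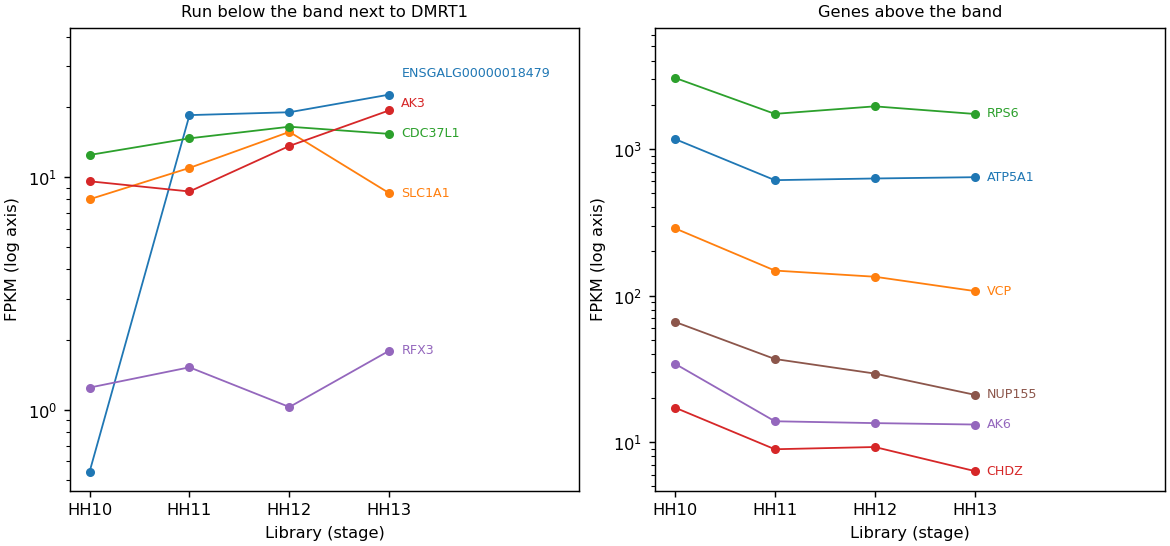
FPKM on a log axis in each of the 4 libraries, 1 line per gene. Left, the 5 neighbouring rows below the band at chrZ:26531633-27328174, with SMARCA2, VLDL and KIAA0020 lying between DMRT1 and this run. In it ENSGALG00000018479 goes from 0.540 in HH10 to between 18.4 and 22.6 later. Right, 6 genes above the band, chosen as examples after their values were seen, each highest in HH10.

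DMRT1 itself had 5.28, 5.22, 3.02 and 2.25 FPKM, a relative difference of 0.56 in which HH10 and HH11 were alike. Its neighbours DMRT2 and DMRT3 stayed under 1 FPKM. Among the genes of highest level within 2 Mb of DMRT1, SMARCA2 lay below the band, KIAA0020, RCL1 and ANKRA2 inside, and NSA2, VLDL, UTP15 and MRPS27 above. SMARCA2, a chromatin remodelling ATPase, was level at 18.4, 18.6, 17.3 and 20.5 FPKM. NSA2, a ribosome biogenesis protein, had 262, 140, 179 and 155, and UTP15, another protein of ribosome assembly, 89.8, 52.3, 50.3 and 30.1.

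The same measure was highest, at 0.81, over 25 rows from FAM172A to CCDC125 (chrZ:57916145-63984248), with 5 below the band, 5 inside and 15 above, and HH10 highest in 20. RPS23, a ribosomal protein gene there, had 2931, 1746, 1701 and 1567 FPKM. COX7C, a subunit of cytochrome oxidase, had 167, 81.7, 95.1 and 117. Both were highest in HH10. This stretch too was picked for its value. The other runs of at least 4 neighbours below the band were SUSD1, UGCG, GNG10 and an unnamed row (chrZ:65978329-66227617, median 0.14), and MARVELD2, SMN and 2 unnamed rows (chrZ:72829760-72869682, median 0.04).

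Genes with a known copy on W had the highest median of the 7 lists. Of 10 found on Z by symbol, 9 passed the filter, 3 inside the band and 6 above. Their median was 0.85 (1.81-fold), against 0.52 for all Z rows. HH10 was highest in all 9, against 65.7% of all Z rows. Most of the 9 had a mean of at least 20 FPKM. Among all Z rows of that level the median was 0.66, 42.9% lay above the band and HH10 was highest in 73.6%. VCP, an ATPase that extracts proteins for degradation, had 288, 148, 134 and 107 FPKM, and TXNL1, a thioredoxin-like protein, 167, 84.5, 106 and 70.2. TNPO1, a nuclear import receptor, had the smallest difference, 0.50, with 15.5, 13.8, 9.69 and 9.55 FPKM. CHDZ, the Z copy of a chromatin remodeller, is outside the list and was picked after its values were seen, with 17.2, 8.95, 9.27 and 6.36 FPKM.

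For 2 of these genes a W copy with a row of its own was looked up. Both W rows lie on unplaced sequence, and W copies of the other genes were not looked up. ATP5A1, the alpha subunit of the mitochondrial ATP synthase, had 1169, 613, 629 and 642 FPKM on Z, and ATP5A1W 0.654, 213, 237 and 264. The summed FPKM was 1170, 826, 866 and 906, a relative difference of 0.46 against 0.92 for the Z row alone. SPINZ, a reader of histone marks named SPIN1 in RefSeq, had 34.2, 16.9, 18.8 and 19.9, and SPINW 0, 2.76, 2.55 and 2.92, for a sum at 0.69 against 0.88. The W rows were low in HH10 where the Z rows were high. Reads of near-identical Z and W copies can be placed on either, so these divisions are uncertain.

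In the sex differentiation list, 7 of 9 genes passed the filter, with 2 below the band, 4 inside and 1 above. Over all Z rows the shares were 29.6%, 42.5% and 27.9%. FST, which encodes the activin inhibitor follistatin, had 4.47 FPKM in HH10 and 0.446, 0.0237 and 0.400 later, the largest relative difference of a Z gene with a symbol, 2.13. HSD17B4, a peroxisomal enzyme of fatty acid and steroid metabolism, had 55.1, 23.7, 34.0 and 46.9 FPKM. HEMGN, a nuclear protein of blood precursors that also acts in the chick testis, had 3.11, 1.57, 4.31 and 6.81, and GDNF, a neurotrophic factor, 0.883, 2.01, 0.939 and 1.01. HEMGN and GDNF were below the band.

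Genes of translation, folding and degradation had a median of 0.75, and 10 of 18 lay above the band. VCP, TXNL1 and UBE2R2, all above the band, are in the list of genes with a W copy too. Over all Z rows the median was 0.52 and 27.9% lay above the band. Most genes of the list had a mean of at least 20 FPKM. Among all Z rows of that level the median was 0.66 and 42.9% lay above the band. RPS6 had 3056, 1735, 1953 and 1733 FPKM, a relative difference of 0.79, beside -0.08 for RPL37. TXN, thioredoxin, had 1270, 734, 833 and 760 FPKM. BRIX1, a ribosome biogenesis factor, had 146, 87.3, 98.0 and 52.4. Except for RPL37, DNAJA1 and PAIP1, the genes of the list were inside or above the band. HH10 was highest in 16 of 18, against 65.7% of all Z rows and 73.6% of Z rows of 20 FPKM or more.

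Cell cycle and DNA repair genes had a median of 0.64, with 5 of 26 below the band, 11 inside and 10 above. Over all Z rows the shares were 29.6%, 42.5% and 27.9%, with a median of 0.52. Genes of the list were found in all 3 classes of level. Above the band lay 17.4% of Z rows under 5 FPKM, 27.5% of those from 5 to 20 and 42.9% of those of 20 or more. XPA, which verifies damage in nucleotide excision repair, had 127, 77.4, 62.1 and 50.9 FPKM. SMC2, a condensin subunit, had 93.8, 49.4, 60.9 and 50.9, CENPH, a kinetochore protein, 77.6, 51.6, 32.8 and 37.0, and NUP155, a nuclear pore protein, 66.2, 36.9, 29.4 and 21.1. In all 4 HH10 was the highest library. The lowest value in the list, -0.50 for CDKN2A, rests on 1.97 FPKM in HH11 and a listed 0 in the other libraries, and was 0.03 without HH11.

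Metabolism and yolk uptake genes had a median of 0.50, with 12 of 35 below the band, 14 inside and 9 above, near the median of 0.52 and the shares of 29.6%, 42.5% and 27.9% for all Z rows. NDUFS4, a subunit of respiratory complex I, had 42.1, 20.2, 24.1 and 23.6 FPKM, and was highest in HH10. MCCC2, a subunit of the leucine-degrading carboxylase, had 17.2, 20.8, 25.1 and 33.2, and was lowest in HH10. PLIN2, a coat protein of lipid droplets, had 156, 110, 112 and 38.1.

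Blood and vessel genes had a median of 0.33, with 13 of 29 below the band, 11 inside and 5 above, and HH10 highest in 13. Over all Z rows 29.6% lay below the band, 42.5% inside and 27.9% above, and HH10 was highest in 65.7%. Most genes of the list had a mean under 5 FPKM. Z rows of that level had a median of 0.35, near that of the list. Of them 39.5% lay below the band, 43.2% inside and 17.4% above, and HH10 was highest in 53.2%. The median of the list was 0.13 without HH11, 0.22 without HH12 and 0.45 without HH13. With a pseudocount of 0.1 it was 0.54, against 0.60 for all Z rows. DAB2, an endocytic adaptor, had 34.3, 16.5, 36.3 and 110 FPKM. TEK, the angiopoietin receptor that is also among the endothelial markers, had 3.75, 1.44, 4.14 and 9.40, and JAK2, the kinase of cytokine receptors, 4.04, 2.60, 4.75 and 7.45. In these 3 HH13 was the highest library and HH11 the lowest, the order seen in the cell type markers. Their part in the result was not tested.

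Other genes of that list were highest in HH10. GP130, the shared cytokine receptor IL6ST, had 20.6, 14.3, 10.4 and 9.49 FPKM, ITGA1, an integrin chain that binds collagen, 28.1, 17.7, 18.6 and 18.5, and VCAN, the proteoglycan versican, 4.78, 1.03, 0.865 and 2.61. Growth factor signalling genes had a median of 0.41, with 10 of 21 below the band, 7 inside and 4 above. Over all Z rows 29.6% lay below the band, 42.5% inside and 27.9% above. Most growth factor signalling genes also had a mean under 5 FPKM. Among Z rows of that level the median was 0.35, with 39.5% below the band, 43.2% inside and 17.4% above. GHR, the growth hormone receptor, had 17.04, 9.42, 15.4 and 31.4 FPKM, KLF9, a transcription factor, 0.517, 1.14, 1.57 and 0.835, and MADH2, the signal transducer SMAD2, 21.5, 15.7, 12.4 and 8.15. The lists were chosen with earlier results of these data known.

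Changes from HH11 to HH13 leave the HH10 library out, and here Z was like the other chromosomes. The median difference was -0.00 on the log2 scale on Z and -0.02 on numbered chromosomes. At least 2-fold higher in HH13 were 59 Z rows (10.99%), against 13.4% of numbered rows, and at least 2-fold lower were 25 (4.66%), against 5.40%. Both shares on Z were near those of the numbered rows. From HH11 to HH12 24 Z rows (4.47%) were higher and 6 (1.12%) lower, against 4.43% and 1.43% of numbered rows. From HH12 to HH13 they were 36 (6.70%) and 15 (2.79%), against 8.67% and 2.96%. Of the 59 rows, 55 had HH12 between HH11 and HH13, and of the 25, 19 did.

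The largest difference on Z was in ENSGALG00000004518, an unnamed row with 4.005, 0.324, 8.22 and 45.0 FPKM, 5.12 log2 units higher in HH13 than in HH11. Another unnamed row, ENSGALG00000015366, had 4.63, 0.772, 7.53 and 23.5 FPKM. Both are given after their values were seen. Among genes with a symbol, SEPP1 was 4.15 log2 units higher in HH13 than in HH11 and FBP1 4.11, with the values given above. C5ORF13, named NREP in RefSeq, had 16.6, 4.44, 16.4 and 68.8 FPKM and was 3.68 higher. SNORA47, listed at 0 in all but HH13, was taken by the same rule.

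CDO1, cysteine dioxygenase, had 9.81, 3.85, 16.1 and 49.7 FPKM, and DMGDH, a mitochondrial enzyme of choline breakdown, 0.699, 0.160, 2.33 and 12.1. TMEM174 had 9.07, 0.690, 2.89 and 13.6. In these 6 protein genes HH11 was the lowest library and HH13 the highest. CDO1 had a relative difference of -0.55 between HH10 and the later libraries, which was 0.28 without HH13. By list, 10 of 29 blood and vessel genes, 7 of 35 of metabolism and yolk uptake, 1 of 7 of sex differentiation and 1 of 21 of growth factor signalling were at least 2-fold higher, against 10.99% of Z rows and 13.4% of numbered rows. None of the 9 genes with a W copy, 18 of translation or 26 of cell cycle was. The sums of the endoderm, red cell and endothelial markers were higher in HH13 than in HH11 too, and their part in these differences was not tested.

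Lowest in HH13 against HH11 was PPAP2A. PPAP2A, a phosphatase of lipid phosphates, had 277, 322, 297 and 39.6 FPKM, an HH13 minus HH11 difference of -2.99 on the log2 scale. VLDL, the very low density lipoprotein receptor VLDLR that takes up yolk precursors in the hen's oocyte, had 71.1, 74.2, 61.8 and 16.3, a difference of -2.12. PLIN2, with the values given above, had a difference of -1.502. In each of the 3 genes the largest step lay between HH12 and HH13.

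HAPLN1, which links hyaluronan to proteoglycans, had 31.8, 30.8, 19.6 and 7.69 FPKM, and AVD, the biotin-binding avidin, 4.12, 6.31, 3.76 and 1.17. SLC28A3, CCDC125 and NXNL2 complete the 8 genes. Since HH13 is 1 of the 3 later libraries, these low values enter the relative differences as well. Without HH13 the relative difference of PPAP2A went from 0.85 to -0.13 and that of AVD from 0.30 to -0.17.

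**Figure D5:**
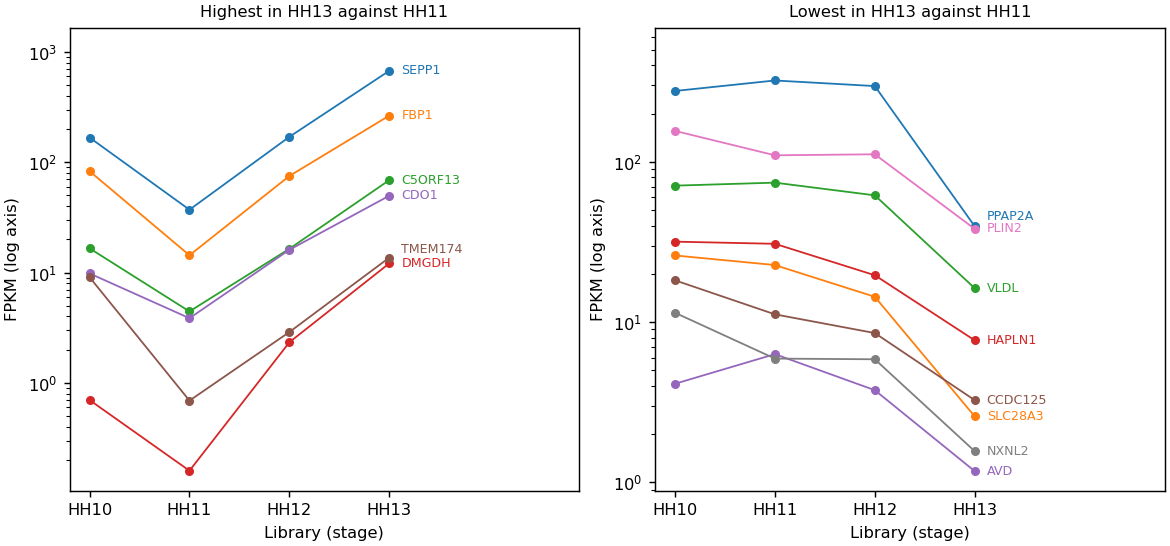
FPKM on a log axis in each of the 4 libraries, 1 line per gene, for the named Z genes with the largest differences between HH11 and HH13, higher in HH13 on the left (6 genes; SNORA47, listed at 0 in all but HH13, not drawn) and lower on the right. Those on the left are lowest in HH11, and those on the right are lowest in HH13.

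In the authors' deposited table, q-values under 0.05 were given to 11 Z rows for HH11 and HH13 (2.05%, against 1.69% of numbered rows). Such q-values were given to 7 for HH10 and HH13 (1.30%, against 0.696%) and 4 for HH12 and HH13 (0.745%, against 0.498%). They were given to 2 for HH11 and HH12 (0.372%, against 0.160%) and 1 for HH10 and HH11 (0.186%, against 0.179%). For HH10 and HH12 there were 0, against 16 of 10639 numbered rows. The 1 row for HH10 and HH11 in the authors' deposited table was FBP1. The genes of the other pairs in the authors' deposited table included SEPP1, PPAP2A, VLDL and SLC28A3. With 1 library per stage these q-values rest on no replicate.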

How the data were processed

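The submitters' processing notes name genome build galGal4, TopHat2 2.0.8, Cufflinks and Cuffdiff. Other settings of the authors' processing were not given in these sources. The deposited table holds FPKM per gene and library, and the authors' p-values and q-values for each pair of stages, per the file headers. FPKM are not counts, so depth is unknown and no interval or count test is given. Deposited starts count from 0 and are printed 1 higher.

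Rows that reached 1 FPKM in any library entered. Differences were taken on log2(FPKM + 1) and set relative to the median of 10639 rows on numbered chromosomes. A difference of at least 2-fold was called by size. Of the members, 76 share a locus with another row and 24 names matched an older RefSeq name, from a table of another build used for names only. No sequence is shown.

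Named genes, all with a symbol, were those of highest mean level inside and below the band (10 each), the 8 highest and 8 lowest relative differences at a mean of at least 5 FPKM, the 8 largest differences each way between HH11 and HH13 among rows reaching 5 FPKM in 1 library, 3 per list, and genes within 2 Mb of DMRT1. Some genes taken by this rule are not reported here. Other list members and neighbours are examples chosen after their values were seen. The members, the 7 lists and the rules were chosen with earlier results of these data known. Alternatives covered the pseudocount, filter, scaling, band, windows and leaving out libraries. The work used Python 3.11.15 with numpy 2.4.6, pandas 2.3.3, matplotlib 3.10.9 and scipy 1.17.1, and the script was tested on simulated data.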

Additional observations from a re-analysis of the deposited data

How the results depend on the processing

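With 1 library per stage and no depth, differences have no error of their own, and a row counts as moved where it left the interval of the median over rows, 1.5 times a count, or 0.25 log2 units for a gene. No paired analysis was possible because each stage has 1 library. The Z median of 0.52 ran from 0.49 to 0.53 when each later library was left out. It was 0.60 with a pseudocount of 0.1, 0.32 with 5, 0.36 with no filter (699 rows) and 0.58 with at least 5 FPKM in every library (279 rows). Alternatives chosen after seeing the data gave 0.58 for rows steady in the later libraries and 0.62 with no pseudocount at 5 FPKM or more. For such alternatives only the Z median and the counts inside the band and highest in HH10 were recomputed. Leaving out 25 to 30 Mb or small RNA rows moved none of those.

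The count inside the band, 228, was 123 of 279 rows (44.1%) at 5 FPKM in every library, 139 of 276 (50.4%) for steady rows centred on numbered rows as steady, 114 of 279 (40.9%) with no pseudocount, and 137 of 537 in a band of 0.15. The counts highest in HH10, 353 in all, were 210, 235 and 210 of these rows. The 3 row choices lower counts by testing fewer rows. With libraries scaled to the same total FPKM, HH10 was highest in 53.1% of Z rows and 5.32% of numbered rows. From HH11 to HH13, 92 Z rows were 2-fold higher with a pseudocount of 0.1, 30 with 5 and 20 with at least 5 FPKM in every library, and 40, 5 and 9 were lower. The class under 5 FPKM had a median of 0.54 with a pseudocount of 0.1 and 0.16 with 5 or with no filter, and the class from 5 to 20 FPKM 0.41 with 5. Growth factor genes had 0.048 at 5 FPKM in every library, on 5 members. The lowest window, 0.24, was 0.33 with windows of 10 Mb and -0.012 as a running median. The lowest window, found anew each time and not necessarily the same one, was at 0.10, 0.18 and 0.19 without HH11, HH12 and HH13. Of 697 values of single genes under the alternatives, 603 were counted as the same and 87 as moved. Without HH11, for example, ACAA2 went from 0.71 to 0.29 and DMRT1 from 0.56 to 0.83. Some values counted as moved changed sign, such as SEPP1, from 0.067 to -0.98 without HH11. Some counted as the same did too, such as NADK2, from -0.14 to 0.044 without HH13. A further 7 were counted as reversed in sign, all on leaving out 1 library. FBP1 ran from -0.73 without HH11 to 1.33 without HH13, and CDKN2A from -0.76 without HH12 to 0.030 without HH11. SNORA66 ran from -2.92 without HH11 to 0.022 without HH12, and SNORA47 from -2.25 without HH12 to 0.030 without HH13. The values of 0.030 for CDKN2A and SNORA47 and 0.022 for SNORA66 do not show a difference the other way. These rows were then listed at 0 in every library left, and the value is only the numbered median that was subtracted. CDO1 ran from -1.41 without HH11 to 0.28 without HH13, PPAP2A from -0.13 without HH13 to 1.37 without HH11, and AVD from -0.17 without HH13 to 0.70 without HH11.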

Other observations

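A relative difference as low as that of ENSGALG00000018479 was found in 3 of 10639 rows on numbered chromosomes and in 11 of 630 rows on W, mitochondrial and unplaced sequence. The opposite extreme on Z, the unnamed row ENSGALG00000028920 (chrZ:65890191-65890333), had 11.4 FPKM in HH10 and was listed at 0 in HH11, HH12 and HH13. It passed the filter through HH10 alone, and its listed 0 values can be failed estimates. Some rows on numbered chromosomes had a larger relative difference than this row.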
